A study of Panonychus citri with 4 samples.

Results

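Hatching was examined by setting the small RNA library of larvae against that of embryos of the citrus red mite (Panonychus citri), a spider mite that feeds on citrus leaves. The members are the known miRNAs listed in either library, joined into sequence groups wherever names of the same family had overlapping sequences without a mismatch over at least 17 bases. This gave 277 groups, of 366 over all 4 libraries of the series, with 160 listed in both libraries, 52 in the embryo library alone and 65 in the larva library alone. Comparisons used the 76 groups with at least 30 reads over both libraries, each of which had reads in both. The other 201 groups held 0.187% of embryo and 0.0522% of larva reads.

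Both libraries came from whole bodies of mites with no named strain or treatment, and each was 1 library from 1 pool, of more than 3000 embryos and of 2500 larvae. Gel-purified RNAs of 18 to 30 nucleotides were ligated to adapters, amplified and sequenced. The labels give no age for the embryos or larvae. Since each stage has a single library, the stages were not tested against each other and every value compares these libraries, with no check by replicates. All intervals are 95% exact intervals (conditional binomial for ratios, Clopper-Pearson for shares). They take in the counting error of reads alone and no variation between pools. Several amplified reads can stem from 1 molecule, so they can be too narrow even for the counting of molecules.

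A miRNA is cut from a hairpin precursor whose arms each yield a short RNA, named 5p and 3p, and its seed, bases 2 to 8 from the 5′ end, pairs with target mRNAs and lowers their stability or translation. In arthropod embryos miRNAs act in patterning, cell survival and the formation of muscle and nerve. The mite larva that leaves the egg is the first mobile and feeding stage. Sequences of some of the miRNAs described below are shown first, with the seed in capitals and the letters as deposited (T for U).

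miR-315: tTTTGATTgttgctcagaaggcg
miR-92-3p: tATTGCACtcgtcccggcct
miR-92f-3p: tATTGCACtagtcccggcct
miR-1: tGGAATGTaaagaagtatggag
miR-184: tGGACGGAgaactgataagggc
miR-5735-3p: tGGACAACaggataatggcg
miR-34-5p: tGGCAGTGtggttagctggtt
miR-317: tGAACACAgctggtggtatctca

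The embryo library held 248256 listed miRNA reads and the larva library 1012278, from nearly equal library totals of 5957910 and 5941043 reads. Listed miRNAs thus made up 4.17% (interval 4.15 to 4.18) of the embryo library total and 17.04% (17.01 to 17.07) of the larva total. What the unlisted 5709654 embryo and 4928765 larva reads were is not given in the sources used here. Levels are therefore given as reads per 1000000 reads (RPM) of the library total, called library RPM, and ratios are given per listed read and per library total. The second ratio is always 4.09 times the first, a shift of 2.03 on the log2 scale. Reads were concentrated in few groups in both libraries. The 3 largest groups held 71.7% of listed reads in the embryo and 80.5% in the larva, and 90% was reached with 8 and 6 groups. Of the 10 largest groups, 8 were shared by both libraries.

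A group was called higher or lower when the interval of its ratio lay wholly beyond 2-fold. Of the 76 groups, 16 (21.1%) were called higher in the larva and 34 (44.7%) lower per listed read. Per library total 34 (44.7%) were called higher and 3 (3.95%) lower. The scales differ by a constant factor, so the 16 groups called higher per listed read had to be called higher per library total. Likewise, the 3 called lower per library total had to be called lower per listed read. Being called on both scales is thus no separate evidence. The median log2 ratio over the 76 groups was -1.02 per listed read and 1.01 per library total. Over the 50 groups outside the vertebrate-type and let-7 names it was 0.346 and 2.38. Of those 50 groups, 16 were called higher and 11 lower per listed read, and 34 and 3 per library total. In whole-body pools, fewer cells of a type and less of a miRNA per cell cannot be told apart.

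**Figure D1:**
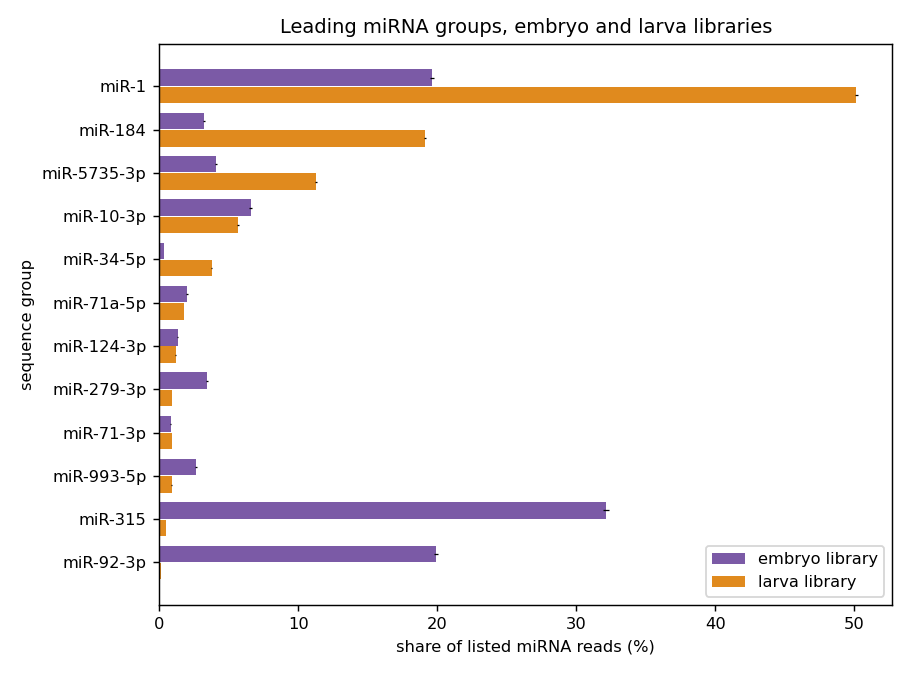
Share of listed miRNA reads (%, horizontal axis) of the groups among the 10 largest in either library, with bars for the embryo and larva libraries and 95% counting intervals as thin lines. miR-315 and miR-92-3p lead the embryo library with 32.1% and 19.9%, and miR-1 and miR-184 lead the larva library with 50.1% and 19.1%.

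The miRNAs that led the embryo library were low after hatching. miR-315, which activates Wingless signalling in Drosophila when overexpressed, stood at 79795 reads in the embryo library and 4659 in the larva library, or 13393 against 784.2 library RPM. It ranked 1 among embryo groups and 13 among larva groups. Its level was 69.8-fold lower per listed read and 17.1-fold lower (16.6 to 17.6) per library total. The miR-92 family, related to a vertebrate family and acting in Drosophila neural stem cells, was lower by a wider margin. miR-92-3p had 49458 embryo and 1382 larva reads, or 8301 against 232.6 library RPM, and went from rank 2 to rank 21. It was 35.7-fold lower (33.8 to 37.7) per library total. Both remained detected in the larva, far above the floor of 0.505 library RPM that 3 reads represent.

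The second miR-92 sequence, miR-92f-3p, shares the seed and 19 of its 20 bases with miR-92-3p and carries the substitution C10A, counted from the 5′ end. It had 1533 embryo and 185 larva reads, or 257.3 against 31.1 library RPM, and was 8.26-fold lower (7.09 to 9.68) per library total. The pair was therefore not lower in proportion. There were 32.3 reads of miR-92-3p for each read of miR-92f-3p in the embryo (30.7 to 34.0) and 7.47 in the larva (6.40 to 8.76), a change by a factor of 0.232 that does not depend on scaling. Summed over all names with this seed, ATTGCAC, the libraries held 50985 embryo and 1599 larva reads, or 20.5% and 0.158% of listed reads. Among the low groups of the family, miR-92e-3p had 10 embryo reads and miR-92c-3p 8, with no larva row for either. Set against a floor of 3 larva reads, they were 3.32-fold and 2.66-fold lower in the larva per library total. These folds carry no interval for counting error. miR-92h-3p was at 15 and 12 reads.

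The name miR-25, whose family is the vertebrate counterpart of miR-92, differed from these. It had 28 embryo and 21 larva reads and a ratio of 0.752 (0.406 to 1.37) per library total. That interval holds 1, and miR-25 was called lower per listed read alone.

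The losses of library RPM were nearly all in the embryo-led groups and the gains in a few others. Over the 100 groups that were lower in library RPM, the differences, larva minus embryo, summed to -20985 library RPM. Of this loss, miR-315 and miR-92-3p made up 60.1% and 38.4%. Over the 177 groups that were higher, the gain was 149704 library RPM. miR-1 made up 51.6% of the gain, miR-184 20.8%, miR-5735-3p 11.7% and miR-10-3p 4.61%, so that these 4 held 88.8% of it. miR-34-5p added 4.21%.

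Levels of both muscle miRNAs were above those of the embryo after hatching. miR-1, which is needed for muscle growth in Drosophila larvae, had 48748 embryo and 507589 larva reads, or 8182 and 85438 library RPM. Its ratio was 2.55 (2.53 to 2.58) per listed read and 10.4 (10.3 to 10.5) per library total. miR-133, its partner in vertebrate muscle, was far rarer, with 26 embryo and 519 larva reads. Its ratio was 4.90 (3.30 to 7.57) per listed read and 20.02 (13.5 to 30.9) per library total. The miR-1 reads for each miR-133 read numbered 1875 in the embryo (1279 to 2871) and 978.0 in the larva (897.3 to 1068), intervals that do not overlap. The miR-1 length variants kept nearly equal proportions, and the 20-base form, miR-1b, held 4472 of 48748 embryo and 46793 of 507589 larva reads. The muscle list held 8 groups, and the 2 with at least 30 reads were both called higher per listed read and so also per library total. Of all 76 groups, 21.1% and 44.7% were called higher on these scales.

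miR-184, which acts in the Drosophila female germline and early embryo, had a larger ratio but a smaller gain in library RPM than miR-1. It had 8046 embryo and 193431 larva reads, or 1350 and 32558 library RPM, and moved from rank 7 to rank 2. Its ratio was 5.90 (5.77 to 6.03) per listed read and 24.1 (23.6 to 24.7) per library total. There were 6.06 miR-1 reads for each miR-184 read in the embryo (5.92 to 6.20) and 2.62 in the larva (2.61 to 2.64). The listed variant make-up of miR-184 also differed, though whether a row also counts other lengths is not stated in the sources used here. The 20-base form miR-184a-3p, which ends before the last GC of miR-184, held 2.61% of the group in the embryo (2.27 to 2.98) and 9.33% in the larva (9.21 to 9.47). A 21-base form, miR-184-3p, held 5.34% in the embryo and had no larva row. The names miR-184d-3p and miR-184e-3p, each 1 base away from a miR-184 sequence, had 28 and 11 larva reads and no embryo row. Together they equal 0.0202% of larva miR-184 reads.

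miR-5735-3p was the third group of the larva library. It had 10155 embryo and 114171 larva reads, or 1704 and 19217 library RPM, all in the same 20-base sequence. Its ratio was 2.76 (2.70 to 2.81) per listed read and 11.3 (11.05 to 11.5) per library total. miR-3931 was listed as 1 sequence with 32 embryo and 909 larva reads and had ratios of 6.97 (4.90 to 10.2) and 28.5 (20.03 to 41.9).

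miR-34 and miR-317, which lie in the same cluster in Drosophila, were both higher but not to the same extent. miR-34-5p, linked to ageing in Drosophila, had 824 embryo and 38263 larva reads, or 138.3 and 6440 library RPM, with a ratio of 11.4 (10.6 to 12.2) per listed read and 46.6 (43.5 to 50.0) per library total. miR-317 had 294 and 6323 reads, or 49.3 and 1064 library RPM, with ratios of 5.27 (4.69 to 5.95) and 21.6 (19.2 to 24.3). The miR-34-5p reads for each miR-317 read numbered 2.80 in the embryo (2.45 to 3.21) and 6.05 in the larva (5.89 to 6.22), a change by a factor of 2.16 that does not depend on scaling. The 20-base form named miR-34 held 19.2% of the miR-34-5p group in the embryo (16.5 to 22.03) and 14.5% in the larva (14.2 to 14.9). The opposite arm, miR-34-3p, was near the floor with 3 and 1 reads.

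**Figure D2:**
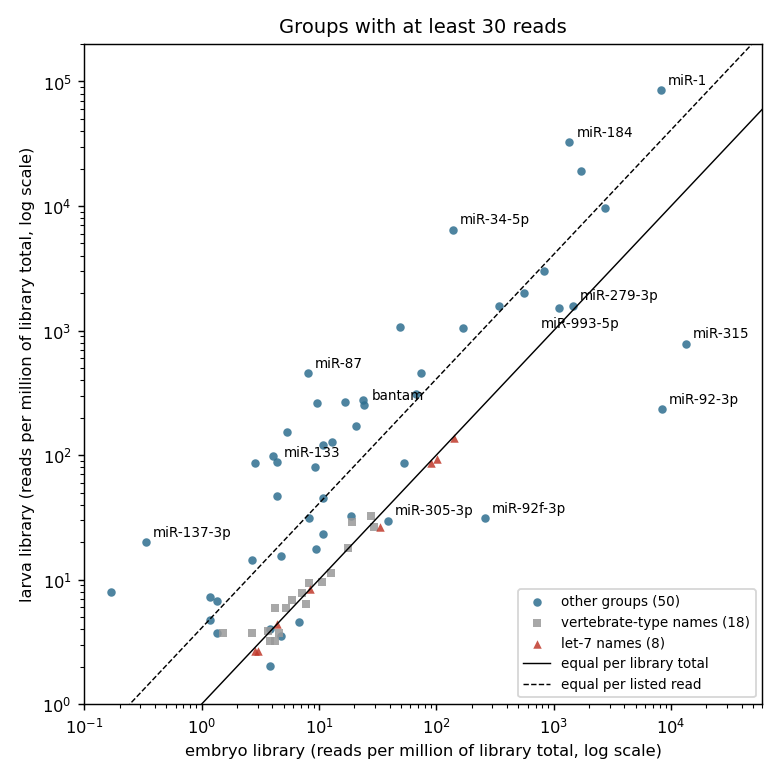
Levels of the 76 groups with at least 30 reads in the embryo library (horizontal) and larva library (vertical), both in library RPM on log axes, with each point 1 group and the shape giving its class. The solid line marks equal levels per library total, which the vertebrate-type and let-7 names follow, and the dashed line marks equal levels per listed read. miR-315 lies far below both lines, as do miR-92f-3p and miR-92-3p.

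The neuron and sense organ list held 12 groups with at least 30 reads. Of these, 4 were called higher and 1 lower per listed read, and 10 higher and 0 lower per library total, against 21.1% and 44.7% of all 76 groups called higher on these scales. Its median log2 ratio was 0.99 per listed read, against -1.02 over all groups. Over the 50 groups outside the vertebrate-type and let-7 names the median was 0.346, with 16 called higher per listed read and 34 per library total. miR-87, which acts in sensory neuron dendrites in Drosophila, had 48 embryo and 2694 larva reads, or 8.06 and 453.5 library RPM, with ratios of 13.8 (10.4 to 18.7) and 56.3 (42.3 to 76.5). miR-137-3p, a neuronal miRNA, had 2 embryo and 118 larva reads and ratios of 14.5 (3.92 to 120.9) and 59.2 (16.0 to 494.3). No sequence of this group was listed in both libraries, so its ratios set 20 bases in the embryo against 21 in the larva. miR-153, also neuronal, had 1 embryo and 47 larva reads, and its interval of 1.97 to 464.8 per listed read just missed the call. Per library total, with an interval of 8.06 to 1901, it was called higher. These embryo levels lie at or below the floor of 0.504 library RPM, so the size of both folds is poorly fixed.

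Other nervous system miRNAs were closer between the libraries. miR-7, which acts in Drosophila photoreceptor formation, had 65 and 719 reads and ratios of 2.71 (2.10 to 3.55) and 11.1 (8.60 to 14.5). miR-210-3p, known from the Drosophila eye, had 26 and 277 reads, and its ratio of 2.61 (1.75 to 4.07) per listed read was not called. Its ratio of 10.7 (7.14 to 16.6) per library total was called higher. miR-124-3p, the most widely conserved neuronal miRNA, was already abundant in the embryo with 3306 reads, against 11848 in the larva. It stood at 554.9 and 1994 library RPM, with ratios of 0.879 (0.846 to 0.914) and 3.59 (3.46 to 3.74). Its 2 shortest forms, of 19 and 18 bases, held 0.696% and 0.302% of the group in the embryo and 2.15% and 0.768% in the larva.

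The 2 miR-263 sequences, which protect sensory bristles from cell death in Drosophila, differed in their change. miR-263-5p had 1011 embryo and 6243 larva reads, with ratios of 1.51 (1.42 to 1.62) and 6.19 (5.79 to 6.62). miR-263b, which differs from it by T1C and A2T over 20 compared bases, had 140 and 1632 reads, with ratios of 2.86 (2.40 to 3.42) and 11.7 (9.83 to 14.0). The miR-263-5p reads for each miR-263b read numbered 7.22 in the embryo (6.05 to 8.68) and 3.83 in the larva (3.62 to 4.04). The row of 20 bases listed in both libraries gave miR-263b a ratio of 2.98, close to that of the group. A2T falls in the seed.

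miR-263-5p: tATGGCACtggaagaattcacgg
miR-263b: cTTGGCACtggaagaattca

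miR-279-3p (tGACTAGAtccacattcatcca), which restrains the formation of olfactory neurons in Drosophila, was the exception in this list. It had 8610 embryo and 9413 larva reads, nearly the same count, or 1445 and 1584 library RPM. Its ratio was 0.268 (0.260 to 0.276) per listed read, which was called lower, and 1.10 (1.06 to 1.13) per library total, which was not called.

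The growth and metabolism list held 5 groups, of which 1 was called higher and 1 lower per listed read and 3 higher and 0 lower per library total. Over all 76 groups these shares were 21.1% and 44.7% per listed read and 44.7% and 3.95% per library total, so 1 of 5 higher is near the general share. The list's median log2 ratio per listed read was 1.04, against -1.02 over all groups and 0.346 outside the vertebrate-type and let-7 names. bantam, which promotes growth and blocks cell death in Drosophila, had 145 embryo and 1500 larva reads, or 24.3 and 252.5 library RPM, with ratios of 2.54 (2.14 to 3.03) and 10.4 (8.74 to 12.4). miR-8-3p, which acts on insulin signalling in Drosophila fat body, had 122 and 1025 reads and ratios of 2.06 (1.71 to 2.51) and 8.43 (6.98 to 10.3). miR-278-3p, which acts in Drosophila energy balance, had 55 and 480 reads and ratios of 2.14 (1.62 to 2.88) and 8.75 (6.61 to 11.8). miR-375-3p, known from vertebrate endocrine cells, was listed with 19 reads in the larva alone. Set against a floor of 3 embryo reads, it was 6.35-fold higher per library total, without an interval for counting error.

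Members of the Hox-cluster list were divided. These miRNAs lie among the Hox genes that pattern the body axis. Of the 4 groups, 0 were called higher and 1 lower per listed read, where all 76 groups gave 21.1% and 44.7%. Per library total 3 were called higher and 0 lower, beside 44.7% and 3.95% of all groups. miR-10-3p had 16317 embryo and 57288 larva reads, or 2739 and 9643 library RPM, and ranked 4 in both libraries. Its ratio was 0.861 (0.846 to 0.876) per listed read and 3.52 (3.46 to 3.58) per library total. miR-993-5p had 6562 and 9025 reads, or 1101 and 1519 library RPM, with ratios of 0.337 (0.327 to 0.348) and 1.38 (1.34 to 1.42). miR-993a-3p, from the other arm of the same family, had 445 and 2718 reads and ratios of 1.498 (1.35 to 1.66) and 6.13 (5.54 to 6.79). miR-10-5p and miR-993-5p share the seed ACCCTGT and 16 of 22 bases. The names with this seed summed to 2.67% of embryo and 0.914% of larva reads, almost all from miR-993-5p.

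miR-10-5p: cACCCTGTagatccgaatttgt
miR-993-5p: tACCCTGTagacccgggctttt

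The miR-71/miR-2 cluster, in which miR-2 targets cell death genes in Drosophila and miR-71 affects lifespan in Caenorhabditis elegans, kept its share of listed reads. Its list held 2.96% of listed reads in the embryo and 2.87% in the larva, and 0 of its 3 groups were called per listed read. Per library total 3 of 3 were called higher, beside 44.7% of all 76 groups and 34 of the 50 outside the vertebrate-type and let-7 names. Per listed read 21.1% of all groups were called higher and 44.7% lower. miR-71a-5p had 4919 and 17911 reads, miR-71-3p 2020 and 9303, and miR-2b-3p 399 and 1843. There were 5.06 miR-71-3p reads for each miR-2b-3p read in the embryo (4.54 to 5.65) and 5.05 in the larva (4.80 to 5.31), values that differ by less than their intervals. The listed lengths differed more than the sums. In the embryo the 22-base form miR-71 held 76.4% of the miR-71a-5p group (75.1 to 77.5) and in the larva it had no row, where the 21-base form held 99.96%. Counting only sequences listed in both libraries, miR-71a-5p had a ratio of 3.78 (3.56 to 4.02) and miR-2b-3p of 3.56 (2.97 to 4.29) per listed read, so their near-equality rests on joining the lengths.

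The remaining conserved groups were mostly higher. In the other conserved list, 5 of 8 groups were called higher and 1 lower per listed read, and 7 and 0 per library total, with a median log2 ratio of 1.72 per listed read. The corresponding values over all 76 groups were 21.1% and 44.7% per listed read, 44.7% and 3.95% per library total, and a median of -1.02. Outside the vertebrate-type and let-7 names the median was 0.346, with 16 of 50 groups called higher per listed read and 34 per library total. Apart from miR-5735-3p, these were miR-276, which acts in Drosophila memory circuits, with 57 and 1550 reads and a ratio of 6.67 (5.12 to 8.85), miR-281-5p with 24 and 580 reads, miR-252c-5p with 17 and 514, and miR-252-5p with 99 and 1596. The last 3 groups had no sequence listed in both libraries. Their ratios of 5.93 (3.94 to 9.33), 7.42 (4.59 to 12.8) and 3.95 (3.23 to 4.89) per listed read therefore set different lengths against each other. The name miR-29a, the lower call of this list, had 23 and 24 reads and a ratio of 1.05 (0.566 to 1.94) per library total. miR-12, the only measured member of the miR-12 cluster list, had 49 and 185 reads and a ratio of 0.926 (0.673 to 1.296) per listed read. Per library total its ratio was 3.79 (2.75 to 5.30), which was called higher. miR-1175b-3p had 7 and 28 reads and was not called on either scale.

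**Figure D3:**
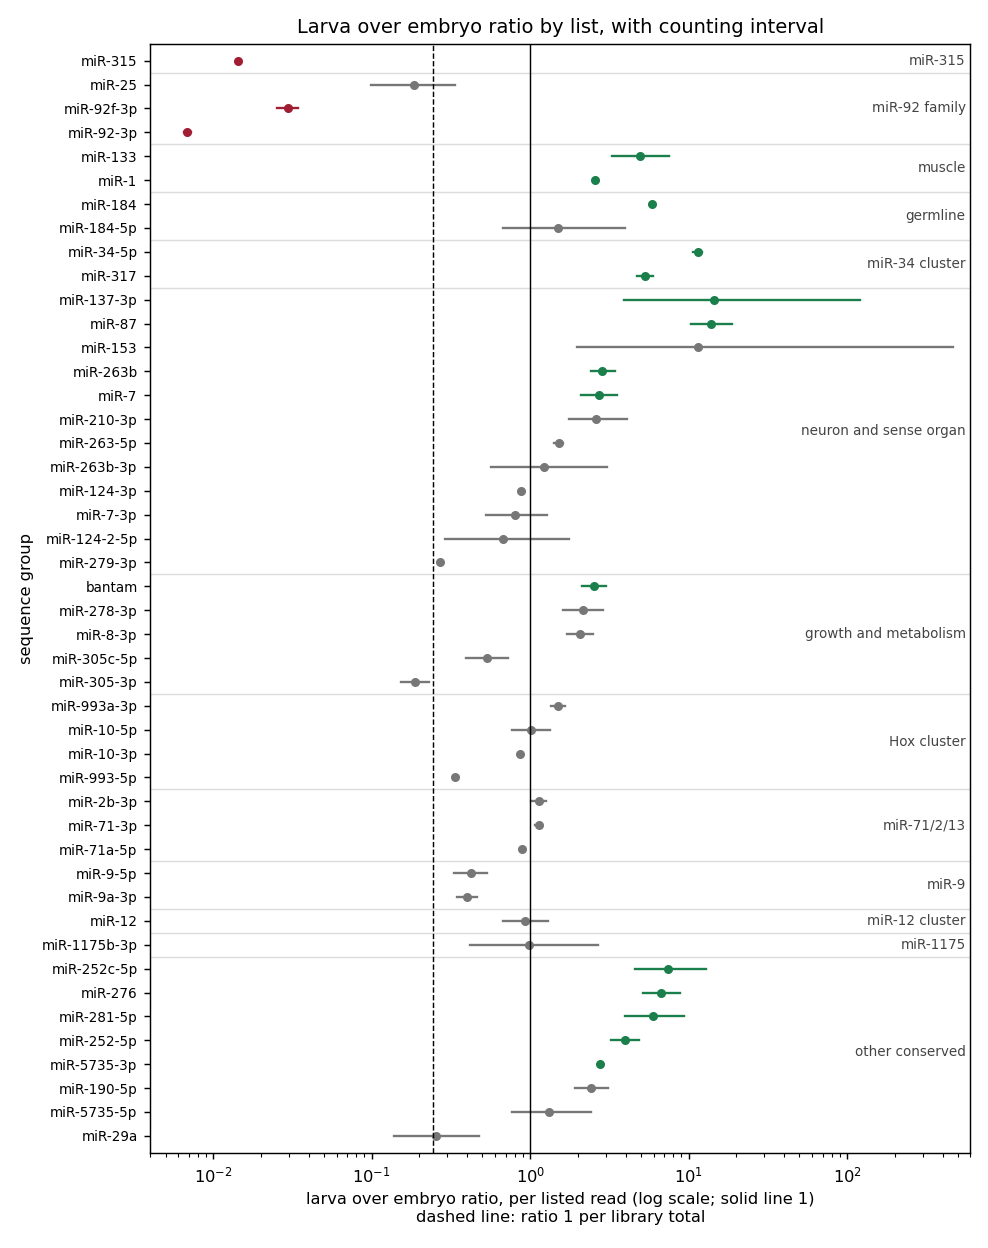
Larva over embryo ratio per listed read (log axis) of the groups in each list with at least 30 reads, with points for the ratio and lines for the 95% counting interval. Green marks groups called higher and dark red groups called lower on both scales, grey all others. The solid line is a ratio of 1 per listed read and the dashed line a ratio of 1 per library total.

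The miR-9 family, which limits the number of sensory organ precursors in Drosophila, was lower per listed read and higher per library total on both arms. Of its 2 groups, 1 was called, as lower per listed read, beside 44.7% of all 76 groups called lower on that scale. miR-9-5p had 112 embryo and 192 larva reads and ratios of 0.420 (0.331 to 0.536) and 1.72 (1.35 to 2.19). The miR-9a-3p group had 315 and 512 reads and ratios of 0.399 (0.346 to 0.460) and 1.63 (1.41 to 1.88). Its listed sequence starts 1 base earlier in the embryo than in the larva, which moves the seed by 1 base. Neither form was listed in the other library, and whether these rows also count other forms is not stated.

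miR-9-3p, embryo: aTAAAGCTatttaaccaaatttg
miR-9a-3p, larva: tAAAGCTAtttaaccaaattt

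The balance between the arms of a precursor compares reads within a library and so does not depend on the scaling. Intervals of the 5p share did not overlap between the libraries for 7 of 12 precursors. In the miR-993 family, the 5p arm held 93.6% of reads in the embryo (93.1 to 94.2) and 76.9% in the larva (76.1 to 77.6), from 7007 and 11743 reads. Nearly all of these reads carried the same 2 sequences in both libraries, since only 16 larva reads of miR-993a-3p came from a shorter form. For miR-7, the 5p arm held 69.9% in the embryo (59.5 to 79.0) and 88.7% in the larva (86.3 to 90.8), again with the same listed sequences. miR-7-3p itself had 28 and 92 reads.

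For miR-305, which acts in Drosophila gut stem cells, the 3p arm dominated the embryo and less so the larva. The 5p arm held 21.8% of 293 embryo reads (17.2 to 27.0) and 44.1% of 315 larva reads (38.6 to 49.8). The 5p form was listed at 23 bases in the embryo and 22 bases in the larva, while miR-305-3p was the same sequence in both. miR-305-3p had 229 embryo and 176 larva reads, and outside the miR-315, miR-92 and let-7 families it was the only one of the 76 groups whose interval per library total lay below 1, with a ratio of 0.771 (0.630 to 0.942). miR-71 shifted less, from 70.9% 5p (69.8 to 72.0) to 65.8% (65.2 to 66.4), with different 5p lengths. The 5p shares of miR-34, miR-184 and miR-263a also had separate intervals, but the minor arm stayed below 1% in both libraries. For miR-9, miR-10, miR-124, miR-263b and miR-5735 the intervals overlapped.

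**Figure D4:**
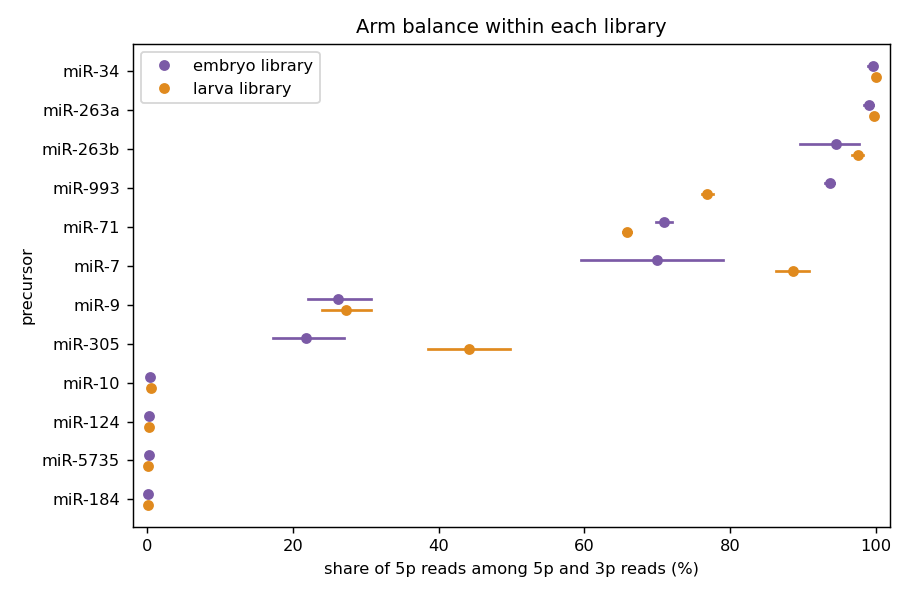
Share of 5p reads among the 5p and 3p reads of each precursor (%, horizontal axis) in the embryo and larva libraries, with points for the share and lines for the 95% counting interval. The shares of miR-993, miR-7, miR-71 and miR-305 lie apart between the libraries, from 93.6% to 76.9% for miR-993 and from 21.8% to 44.1% for miR-305.

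The lengths listed followed the leading groups. Reads of 23 bases made up 33.1% of listed reads in the embryo and 1.91% in the larva, and 97.1% of the embryo's 23-base reads were the miR-315 row. Reads of 22 bases made up 37.6% and 71.6%, with miR-1 as the leading row in both. Sequences starting with T held 92.5% of embryo and 93.2% of larva reads.

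Many of the lower calls per listed read were names known from vertebrates or let-7 names. Of the 34 lower calls, 23 belonged to these classes, 15 of 18 vertebrate-type groups and 8 of 8 let-7 groups, and 0 of their 26 groups were called higher or lower per library total. The vertebrate-type names summed to 1355 embryo and 1419 larva reads over 139 groups, a ratio of 1.05 (0.974 to 1.13) per library total. The let-7 complex list summed to 2313 and 2143 reads, a ratio of 0.929 (0.876 to 0.986). Their median log2 ratios per listed read were -1.95 and -2.11, against -1.02 over all 76 groups. Whether these names stem from mite RNA, and their part in the lower calls, was not tested. Outside these classes 16 of 50 groups were called higher and 11 lower per listed read. Of these 11, 3 were the embryo-led groups. The other 8 were miR-9a-3p, miR-29a, miR-25, miR-279-3p, miR-993-5p, miR-305-3p and the names miR-2284-5p and miR-1260, with 40 and 27 and with 23 and 12 reads. The classes follow fixed lists, so names known from vertebrates can also fall outside them, as miR-25 does in the miR-92 list.

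The calls depend on which groups the totals hold, since the 3 embryo-led groups made up 52.7% of listed reads before hatching and 0.615% after it. With these 3 left out of both totals, miR-1 made up 41.5% of the remaining embryo reads and 50.5% of the remaining larva reads, and its ratio was 1.22 (1.20 to 1.23). Likewise miR-5735-3p went to 1.31 (1.29 to 1.34) and bantam to 1.21 (1.02 to 1.44), neither called. The calls of miR-133, miR-137-3p, miR-252-5p, miR-263b, miR-281-5p and miR-7 were also lost. The 7 groups miR-34-5p, miR-184, miR-317, miR-87, miR-276, miR-252c-5p and miR-3931 were called higher under this and each of the 5 other scalings tried. miR-315 and the sequences miR-92f-3p and miR-92-3p were called lower under the same 6. These scalings are not separate tests, because each multiplies all ratios by 1 constant, from 0.476 to 4.09 relative to listed reads. A higher call at 0.476 or a lower call at 4.09 therefore settles the other scalings.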

How the data were processed

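Small RNA libraries of pooled embryos and pooled larvae were compared, 1 per stage, grouped by the labels' developmental stage. For every known miRNA name the authors deposited its sequence, read count and normalized value, per the file headers. The deposited normalized values are reads per 1000000 (RPM): count over RPM gave the same total in every row of a library, which was taken as the library total. No aligner, miRNA reference, mismatch rule or genome build is named in the sources used here. The list holds part of a library, and a name without a row was taken as 0 reads. Whether a row's count covers other lengths of the same miRNA is not stated. Shares of length variants therefore describe the listed rows.

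Names of a family were joined to the most abundant name (over all 4 libraries) they overlapped over at least 17 bases without mismatch. Paralogs that agree throughout cannot be told apart. Ratios of listed reads carry exact conditional intervals (scipy 1.17.1), and a call needs at least 30 reads and an interval beyond 2-fold. The ratio interval and the call rule were tried on simulated counts with known ratios and fixed totals. The scalings and the arm and variant shares were not simulated. The members, lists and named groups (leading 10 per library, groups called on both scales, all measured list members, shifted arms) were chosen with earlier results of these data known. The minimum expression, joining, call and scaling alternatives are given at the end.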

Additional observations from a re-analysis of the deposited data

How the results depend on the processing

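The counts of 16 higher and 34 lower groups moved most with the scaling. They were 34 and 3 with the library totals, 34 and 3 with median-of-ratios scaling, 30 and 3 with TMM between these 2 libraries and 23 and 13 without miR-1 in the totals. Leaving miR-315 and the sequences miR-92f-3p and miR-92-3p out of the totals, an alternative chosen after seeing the data, gave 7 and 42. Without the vertebrate-type and let-7 classes, also chosen afterwards, they were 16 and 11. With at least 100 reads they were 16 and 19, by name without joining 30 and 45, and with a 4-fold call 7 and 5. A minimum of 10 reads, no minimum, overlaps of 15 or 20 bases, 1 mismatch allowed, sequences listed in both libraries alone and a 1.5-fold call left both counts within 1.5 times. On sequences listed in both libraries, 12 of the 16 higher groups could be compared, and 12 of these 12 were called higher. Among the groups named in the report, outside the vertebrate-type and let-7 classes, called ratios that changed direction were miR-279-3p (1.10 with the library totals, 1.09 with median of ratios), miR-993-5p (1.38, 1.38 and, with TMM, 1.002), miR-9a-3p (1.63, 1.63 and 1.18) and miR-29a (1.05 and 1.04). In those 2 classes the ratios, all below 1 per listed read, ran from 0.762 to 2.45 with the library totals. Some abundant groups not called per listed read were called in opposite directions by other scalings. miR-10-3p, miR-71a-5p and miR-124-3p were called higher with the library totals (3.52, 3.65 and 3.59). With miR-315, miR-92f-3p and miR-92-3p left out of the totals, the same groups were called lower (0.410, 0.425 and 0.418). For miR-252-5p an overlap of 20 bases left only the 19-base row, with no larva reads and a ratio of 0. No paired analysis was possible because each stage has 1 library. The smaller number of listed reads limits the rare embryo groups per listed read, where 3 reads equal 12.1 listed RPM in the embryo and 2.96 in the larva. Per library total the floors were nearly equal, at 0.504 and 0.505 library RPM.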
